A study of Homo sapiens with 4 samples.

Results

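The 10 genes described here encode the subunits and partners of Polycomb repressive complex 2 (PRC2). Among them only EZH1 had a higher level in each miR-28BIO library than in either miR-28CT library, 3.82-fold on the means. Of all 11311 genes tested 12.3% had their libraries separated in this way, and the difference of EZH1 did not pass the test after adjustment. The genes were chosen by symbol from the RefSeq table, as EZH1, EZH2, EED, SUZ12, RBBP4, RBBP7, JARID2, MTF2, PHF19 and AEBP2. They are 10 of the 24763 genes with a named transcript in the deposited files, and their transcripts are 28 of the 53209 records. RNA had been recovered from DU-145, a cell line of human prostate carcinoma, by the miRNA pull out assay, in which a biotin-tagged miRNA is crosslinked to the RNAs it touches and drawn out on streptavidin. All cells received 60 nM of miR-28-5p duplex, so that both arms held added miR-28-5p. In the miR-28BIO arm the duplexes were a mix with biotin at the 3′ end and a thiouridine at 1 of 2 positions, which UV light links to nearby RNA, and in the miR-28CT arm the duplex had no tag, so that its libraries measured background RNA. Each arm had 2 libraries, numbered 1 and 2.

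PRC2 methylates a lysine of the histone H3 tail, a mark of silenced genes. EZH1 and EZH2 are its alternative catalytic subunits, EED binds the mark already laid down, SUZ12 holds the complex together, and RBBP4 and RBBP7 are paralogous histone-binding subunits. MTF2 and PHF19, of the Polycomb-like family, and JARID2 and AEBP2 join the core in different forms of the complex and help to bring it to chromatin. EZH2 is often highly expressed in prostate carcinoma, and EZH1 is known as the form that remains in cells that divide little.

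Values are FPKM, fragments scaled to the length of the transcript and to the mapped reads of the library, so that levels can be compared between genes of different length. They were divided here by 1 factor per library (0.850 to 1.09) and, unless a transcript is named, summed over the transcripts of a gene. A level given this way is relative to the other RNA recovered in the same library. It depends on how much of an RNA the cells held and on how much of it was recovered. These cannot be told apart here, since no input RNA was analysed. The total behind the FPKM, estimated from the deposited coverage, was 13.0 to 17.9 M reads per library. All 5 epithelial markers (KRT8, KRT18, KRT19, EPCAM and CDH1) were above 0.5 FPKM in all 4 libraries, and their summed FPKM was 97.7 and 197.6 in miR-28CT and 57.0 and 122.0 in miR-28BIO. KLK3 and TMPRSS2, markers of prostate luminal cells, were listed at 0 throughout. The summed FPKM of 6 markers of blood, endothelium, stroma and liver was 0.110 to 0.249.

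A miRNA pairs with its targets mainly through its seed. The motif AGCTCCT, which pairs with nucleotides 2 to 8 of miR-28-5p, was searched on the sense strand of the canonical GENCODE 44 transcripts of the 10 genes. EZH1 held it 2 times in its 3′UTR of 2257 bases, in exon 21 of 21, RBBP4 once in its 3′UTR of 6506 bases, and EZH2 and PHF19 once each in the coding sequence. These windows of 30 bases are shown because they are the places in these transcripts that match all of nucleotides 2 to 8 of the transfected miRNA. They are given 5′ to 3′ on the transcript's strand, from the hg38 build, with the match in capitals.
EZH1 3′UTR, chr17:42701735-42701764, minus strand: gggaacagacaccagtgctccAGCTCCTcc
EZH1 3′UTR, chr17:42700784-42700813, minus strand: acccagcaactcctgacagaaAGCTCCTcc
RBBP4 3′UTR, chr1:32684888-32684917, plus strand: aggaaaagtttttgtgtccaaAGCTCCTta
EZH2 coding sequence, exon 10, chr7:148817878-148817907, minus strand: gagaagaaagatgaaacttcgAGCTCCTct
PHF19 coding sequence, exon 9, chr9:120865721-120865750, minus strand: cctttgtcaaccaccactgggAGCTCCTgc

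EED, SUZ12, RBBP7, JARID2, MTF2 and AEBP2 held no AGCTCCT in any region. Among all canonical coding transcripts 14.13% of 3′UTRs and 19.36% of coding sequences held the motif, so that the counts of 2 of 10 genes with it in the 3′UTR and 2 of 10 in the coding sequence lay close to those shares. Of the 2383 3′UTRs within 20% of the length of that of EZH1, 19.3% held the motif and 2.434% held it 2 or more times. Of 3′UTRs as long as that of RBBP4, 40.33% held it. The shorter motif GCTCCT, which lies within AGCTCCT and pairs with nucleotides 2 to 7, was in the 3′UTR of 4 of the 10 genes (EZH1, RBBP4, PHF19 and AEBP2), against 32.78% of all 3′UTRs. A match is a string of letters in a transcript and not a measured site. The match of PHF19 lies outside its short transcript NM_001009936, which carried most of the level of that gene.

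**Figure D1:**
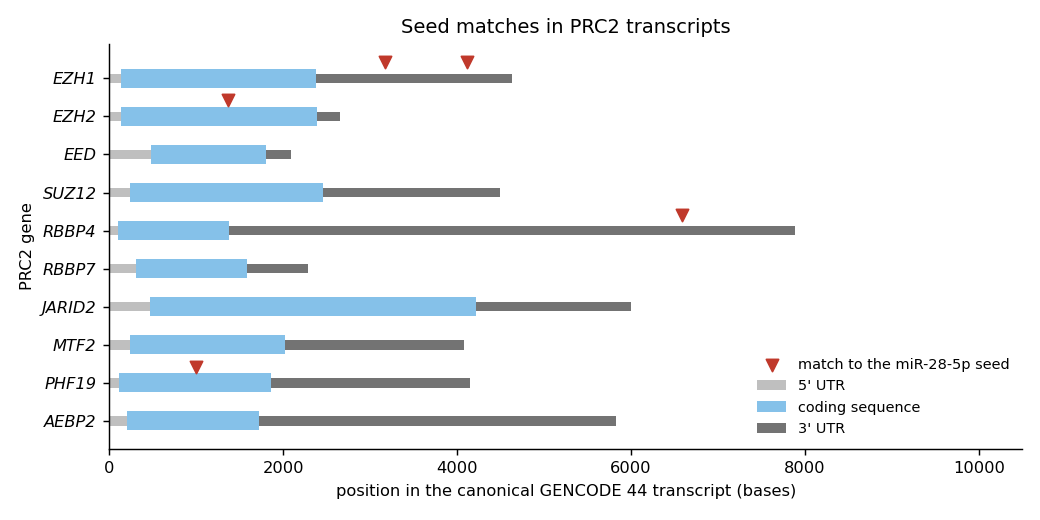
The canonical GENCODE 44 transcripts of the 10 PRC2 genes to scale, with position in bases on the x axis and 1 gene per row. Triangles mark each AGCTCCT, the motif that pairs with the seed of miR-28-5p, which EZH1 held 2 times in the 3′UTR, RBBP4 once in the 3′UTR, and EZH2 and PHF19 once in the coding sequence.

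EZH1 was read through a single RefSeq transcript, NM_001991, which spans chr17:42700275-42745053 in hg38. Its scaled FPKM was 2.31 and 1.30 in miR-28CT replicates 1 and 2, and 8.57 and 5.23 in miR-28BIO replicates 1 and 2. The arms thus did not overlap, and miR-28BIO was the higher, with means of 1.81 ± 0.712 (SD, n = 2) and 6.90 ± 2.36 (SD, n = 2). On the log2(scaled FPKM + 0.1) scale, on which all fold changes are given, the difference was 1.89 with an SE of 0.52. The 2 same-numbered pairs gave 1.85 and 1.93, and estimates without 1 of the 4 libraries gave 1.50 to 2.28. In limma's fit over all 11311 genes the unadjusted p of EZH1 was 0.0221 and the Benjamini-Hochberg adjusted p was 1.00, so EZH1 did not pass the threshold of 0.05. With the replicate number as a block the adjusted p was 0.0565, the lowest over all alternatives, whose highest was 1.00. A larger fold change was found for 293 of the 11311 genes. The study had put this transcript in its list of enriched RNAs using these same libraries, so the list is not independent evidence of the direction. Apart from the list, the study reported predicted binding sites in EZH1 and measured it by qRT-PCR among its transcription factor targets. Most but not all of those targets were enriched, and the study's text does not name which.

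The reads behind the EZH1 values, estimated from the deposited coverage, were 205 and 66.9 in miR-28CT and 729 and 388 in miR-28BIO. Ratios within a library do not depend on scaling between libraries. EZH1 over its paralogue EZH2 was 0.305 and 0.98 in miR-28CT and 0.887 and 1.82 in miR-28BIO, so that the ratio was higher in miR-28BIO within each pair but overlapped between the arms. As a share of the summed FPKM of the core genes (EZH1, EZH2, EED, SUZ12, RBBP4 and RBBP7), EZH1 made up 4.26% and 3.88% in miR-28CT and 17.2% and 16.8% in miR-28BIO. These shares did not overlap, and in each arm the replicates were close to each other. By its mean EZH1 was the lowest of the 10 genes in miR-28CT and the fourth highest in miR-28BIO.

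The 5 genes whose pattern over the 4 libraries was most like that of EZH1 were SNX27, SSR1, SNX1, USH1C and ZNF106. Likeness was the Euclidean distance of log2 values centred on each gene's mean, which was 0.0965 for SNX27, 0.125 for SSR1, 0.192 for SNX1, 0.198 for USH1C and 0.217 for ZNF106. Among the other PRC2 genes AEBP2 lay closest to EZH1, at 1.40. The distance rests on 4 libraries and is given as a description.

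Among the other catalytic and core genes no arm difference passed the test, and RBBP7 was the one with close replicates and arms that did not overlap. For EZH2 the summed FPKM was 7.57 and 1.33 in miR-28CT and 9.65 and 2.88 in miR-28BIO. The difference between the replicates exceeded that between the arms, and the log2 fold change was 0.70 (SE 1.10). Cufflinks, which assigns reads to transcripts, divided EZH2 in a different way in each library. NM_001203247 had 1.74, 1.33, 2.80 and 1.88 in miR-28CT 1 and 2 and miR-28BIO 1 and 2, and its arms were apart. NM_152998 had 5.83, 0, 2.91 and 0.342 in the same order. NM_001203249 was listed at 0 in both miR-28CT libraries and had 1.50 and 0.656 in miR-28BIO, with an adjusted p of 1.00 in limma's fit over all 15587 transcripts. Of the stretches of 50 bases in the EZH2 transcript 2.38% also occur elsewhere in hg38, at the pseudogene EZH2P1 and its surroundings within RUNX1.

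EED, which recognises the methylated lysine, had 1.58 and 2.61 in miR-28CT and 0 and 1.34 in miR-28BIO by NM_003797, its 1 named transcript. The miR-28BIO values were both lower, with a log2 fold change of -2.49 (SE 1.47) and an adjusted p of 1.00 in limma. Since 1 value was 0, the size of this fold change depended on the pseudocount, with -4.13 at 0.01 and -0.995 at 1, and it was -0.56 without miR-28BIO replicate 1 and -4.42 without miR-28BIO replicate 2. The order of the arms did not hold for the locus as a whole. A second record, NM_152991, has the same start and end but no name in the RefSeq table used here, and it had 2.72 and 0.419 in miR-28CT and 4.83 and 1.29 in miR-28BIO. Summed over both records, the locus had 4.30 and 3.03 in miR-28CT and 4.83 and 2.63 in miR-28BIO, so that the arms overlapped. The log2 fold change of the sum was -0.02 (SE 0.51). In miR-28BIO replicate 1, where NM_003797 was listed at 0, the second record had an estimated 213 reads.

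SUZ12, the scaffold of the complex, had 14.6 and 3.88 in miR-28CT and 11.8 and 4.50 in miR-28BIO. Replicate 1 was the higher in both arms, and the arms overlapped, with a log2 fold change of -0.04 (SE 0.90). The sign turned to 0.12 without scaling and to 0.06 with upper quartile scaling, so no direction is given for SUZ12. In its transcript 6.05% of stretches of 50 bases occur elsewhere, mostly in the pseudogene SUZ12P1. The SUZ12P1 transcript had 5.84 and 2.70 in miR-28CT and 6.70 and 2.81 in miR-28BIO, with replicate 1 again higher in both arms.

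RBBP7 had 19.6 and 17.9 in miR-28CT and 12.4 and 11.4 in miR-28BIO, with means of 18.8 ± 1.17 and 11.9 ± 0.730 (SD, n = 2). Both miR-28BIO values were below both miR-28CT values, and both pairs gave a log2 fold change of -0.65. The limma estimate was -0.65 (SE 0.42) with an adjusted p of 1.00, or 0.121 with the replicate block, the lowest over all alternatives, whose highest was 1.00. Its paralogue RBBP4 had 8.62 and 6.54 in miR-28CT and 7.34 and 5.86 in miR-28BIO, and its arms overlapped, with a log2 fold change of -0.19 (SE 0.42). RBBP4 over RBBP7 was 0.44 and 0.365 in miR-28CT and 0.592 and 0.515 in miR-28BIO, without overlap. The RBBP4 value is the one most open to copies, since 12.04% of its stretches of 50 bases occur elsewhere in hg38, among others at RBBP4P1 and RBBP4P2.

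**Figure D2:**
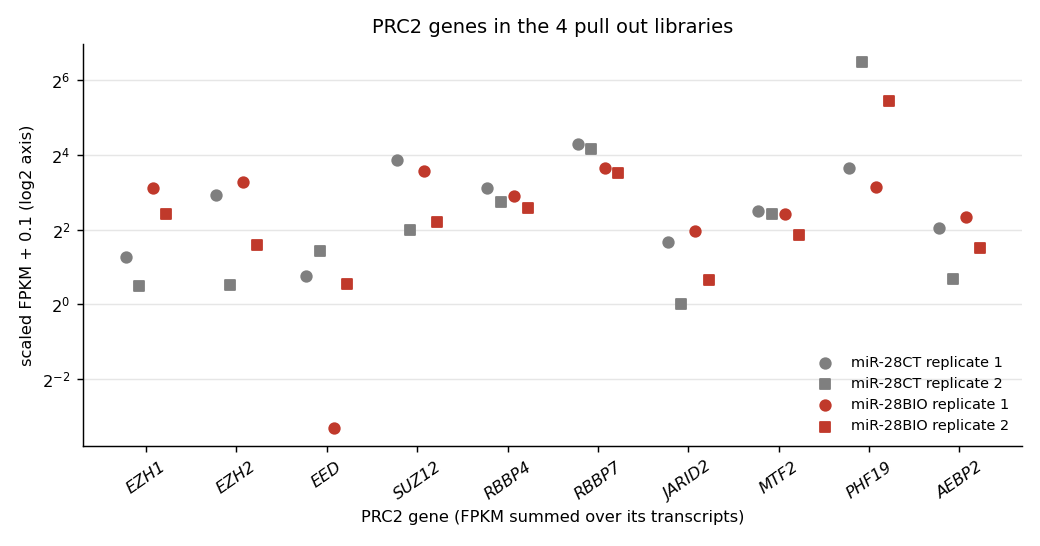
Scaled FPKM + 0.1 on a log2 axis for each PRC2 gene in the 4 libraries, with miR-28CT in grey, miR-28BIO in red, circles for replicate 1 and squares for replicate 2. EZH1 is the gene with both red points above both grey ones (5.23 and 8.57 against 1.30 and 2.31), and for EZH2, SUZ12, JARID2 and PHF19 the replicates lie far apart.

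Of the accessory genes, JARID2, AEBP2 and PHF19 differed more between replicates than between arms. JARID2, a partner that links PRC2 to chromatin, had 3.09 and 0.910 in miR-28CT and 3.77 and 1.46 in miR-28BIO, a log2 fold change of 0.45 (SE 0.84). AEBP2, a zinc finger protein often found with JARID2, had 4.04 and 1.50 in miR-28CT and 4.97 and 2.74 in miR-28BIO, a log2 fold change of 0.56 (SE 0.68). In both genes miR-28BIO was the higher within each pair and the arms overlapped. For AEBP2 this held in pair 2 only through NM_001267043, which had 1.24 in miR-28BIO replicate 2 and was listed at 0 in the other libraries. Its main transcript, NM_153207, had 1.50 in both libraries of pair 2, and a log2 fold change of 0.14 (SE 0.94).

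MTF2 had 5.59 and 5.27 in miR-28CT and 5.26 and 3.53 in miR-28BIO. The miR-28BIO values were both lower, although the nearest libraries of the arms (5.27 and 5.26) were almost level, and the log2 fold change was -0.32 (SE 0.43). PHF19 had 12.5 and 89.6 in miR-28CT and 8.74 and 43.2 in miR-28BIO, a log2 fold change of -0.78 (SE 1.35). It was the only one of the 10 genes that was more than 2-fold higher in replicate 2 than in replicate 1 in both arms. A short transcript of PHF19, NM_001009936 with 990 bases, carried 75.5% to 94.7% of the sum. Without it PHF19 had 2.63 and 4.75 in miR-28CT and 2.14 and 2.87 in miR-28BIO, so that the high level of PHF19 and most of its replicate difference lay in the short transcript. The short transcript spans chr9:120869573-120877328 and so does not contain the AGCTCCT of PHF19, at chr9:120865723-120865729.

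**Figure D3:**
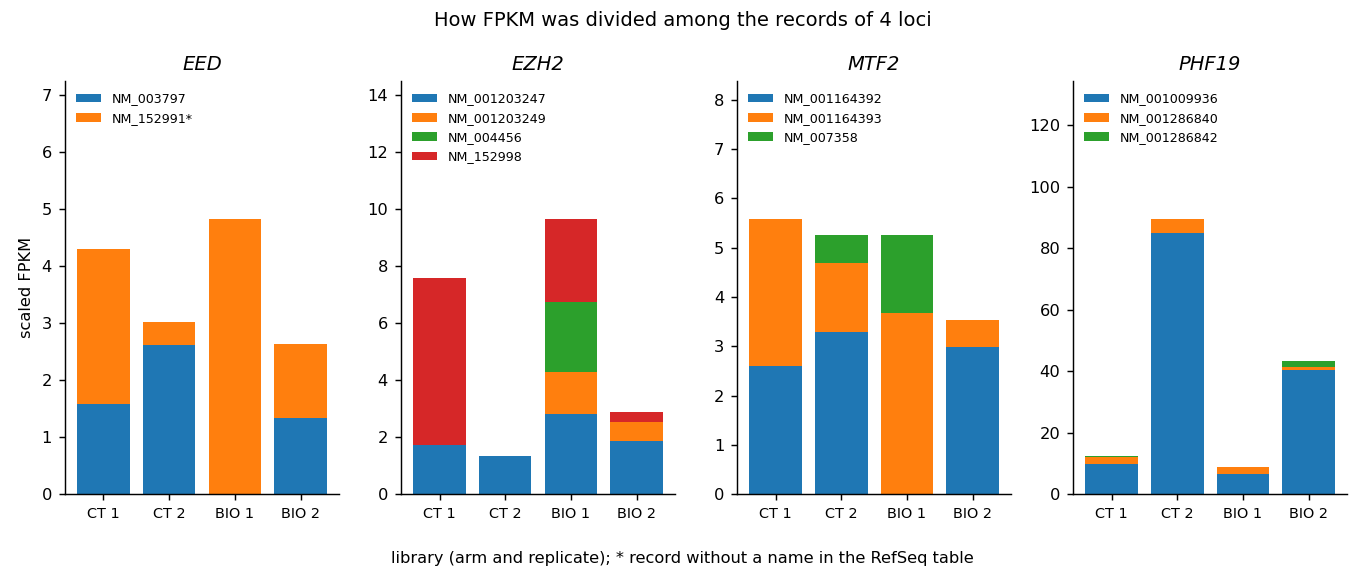
Scaled FPKM of EED, EZH2, MTF2 and PHF19 in each library, stacked by deposited transcript record, with the arm and replicate on the x axis and an asterisk on the EED record that has no name in the RefSeq table. The same locus was divided among records in different ways, as in EED, where miR-28BIO replicate 1 had 0 for one record and 4.83 for the other.

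Ordered by the mean in miR-28CT, the levels per length were 51.0 scaled FPKM for PHF19, 18.8 for RBBP7, 9.22 for SUZ12, 7.58 for RBBP4, 5.43 for MTF2, 4.45 for EZH2, 2.77 for AEBP2, 2.09 for EED, 2.00 for JARID2 and 1.81 for EZH1. The 2 values of PHF19 spanned those of RBBP7, and those of SUZ12 spanned those of RBBP4. The values of MTF2 lay below those of RBBP4 without overlap, and the last 5 genes all overlapped with one another. The RBBP7 values lay above those of all genes but PHF19. The place of EED in this order rests on NM_003797 alone. Summed over both records of its locus, EED had 4.30 and 3.03 in miR-28CT, with a mean of 3.66. That mean is above the one of AEBP2, and both values are above those of EZH1.

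**Figure D4:**
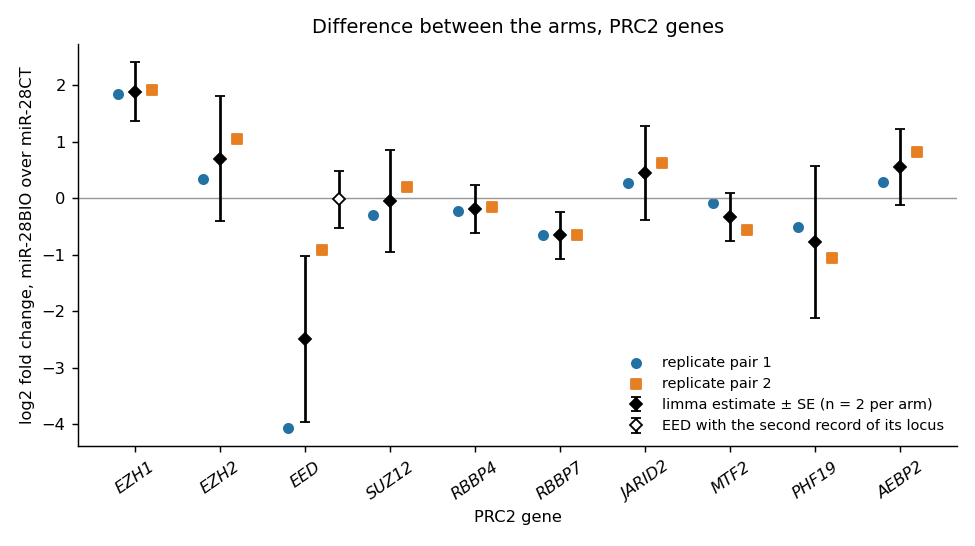
Log2 fold change of miR-28BIO over miR-28CT for each PRC2 gene, with the limma estimate and its SE (n = 2 per arm) as black diamonds and the 2 same-numbered pairs as coloured points. The open diamond shows EED with the second record of its locus, at -0.02 against -2.49 without it, and EZH1 has the highest estimate, 1.89.

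All 10 genes passed the filter on low values, and none was called in limma at an adjusted p under 0.05. Of all 11311 genes tested, 0% were called as enriched and 0.0265% as depleted. EZH1 was the 1 PRC2 gene with an unadjusted p under 0.05, against 2.22% of all genes for that threshold with a higher value in miR-28BIO. With the replicate block 3 were under 0.05 (EZH1, RBBP7 and PHF19), against 25.8% of all genes in either direction (3.02% without the block). The arms did not overlap, with miR-28BIO the higher, in 1 of the 10 (EZH1), against 12.3% of all genes, and with miR-28BIO the lower in 3 of the 10 (EED, RBBP7 and MTF2), against 12.7%. The count of 3 was 2 without scaling, with upper quartile scaling, with the highest transcript of each gene and with both EED records summed. Without scaling the arms of MTF2 overlapped, with FPKM of 5.95 and 4.48 in miR-28CT and 5.55 and 3.84 in miR-28BIO. By at least 2-fold the arms were separated upwards in EZH1 alone of the 10, against 2.17% of all genes. A reduced arm separates more easily. Without miR-28CT replicate 1 the count above was 5, against 32.1% of all genes at that setting, without miR-28BIO replicate 2 it was 4, against 30%, and without miR-28CT replicate 2 the count below was 5, against 31.3%. In both pairs 4 genes were higher in miR-28BIO (EZH1, EZH2, JARID2 and AEBP2), against 30.3%, AEBP2 through 1 transcript as described, and 5 were lower, against 39.7%. The median log2 fold change was -0.12 over the 10 genes and -0.08 over all genes.

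For several PRC2 genes the replicates differed more than the arms. At least 2-fold higher in replicate 1 than in replicate 2 in both arms were 3 of the 10 genes (EZH2, SUZ12 and JARID2), against 12.3% of all genes, and 1 was higher in replicate 2 (PHF19), against 19.1%. The interval that Cufflinks gave for each FPKM did not always contain it. Of the 61 member values above 0, 11 lay outside their own interval, in EZH1, SUZ12, RBBP4 and PHF19, and among all values above 0 the share outside was 10.7% and 24.7% in miR-28CT and 12.5% and 19.9% in miR-28BIO, with replicate 2 the higher in each arm. For SUZ12 and RBBP4 this held in all 4 libraries. Before scaling, the FPKM of SUZ12 in miR-28CT was 15.5 and 3.30 with intervals of 11.6 to 13.7 and 9.76 to 12.0, and in miR-28BIO it was 12.5 and 4.90 with intervals of 8.18 to 10.1 and 7.30 to 9.35. The intervals of the SUZ12 replicates were thus much closer to each other than the values. For RBBP4 the unscaled FPKM in miR-28CT was 9.18 and 5.56 with intervals of 7.31 to 8.59 and 9.99 to 11.6, and in miR-28BIO it was 7.75 and 6.37 with intervals of 5.77 to 6.90 and 8.42 to 9.81. The RBBP4 intervals thus had the replicates in the opposite order to the values in both arms. For EZH1 both replicate 2 values lay below their intervals. Its unscaled FPKM of 1.11 in miR-28CT replicate 2 had an interval of 2.85 to 4.06, and that of 5.69 in miR-28BIO replicate 2 an interval of 11.8 to 14.1. In replicate 1 the EZH1 intervals were 2.08 to 3.11 in miR-28CT and 8.82 to 10.7 in miR-28BIO, so that by intervals too both miR-28BIO libraries were above both miR-28CT libraries. Of the 28 member transcripts 2 had intervals apart in this way, the other being NM_001203249 of EZH2, and 0 had them apart downwards. The share over all records was not calculated, so these counts have no background beside them. How these intervals were made is not given in the sources used here, and their part in the replicate differences was not tested.

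**Figure D5:**
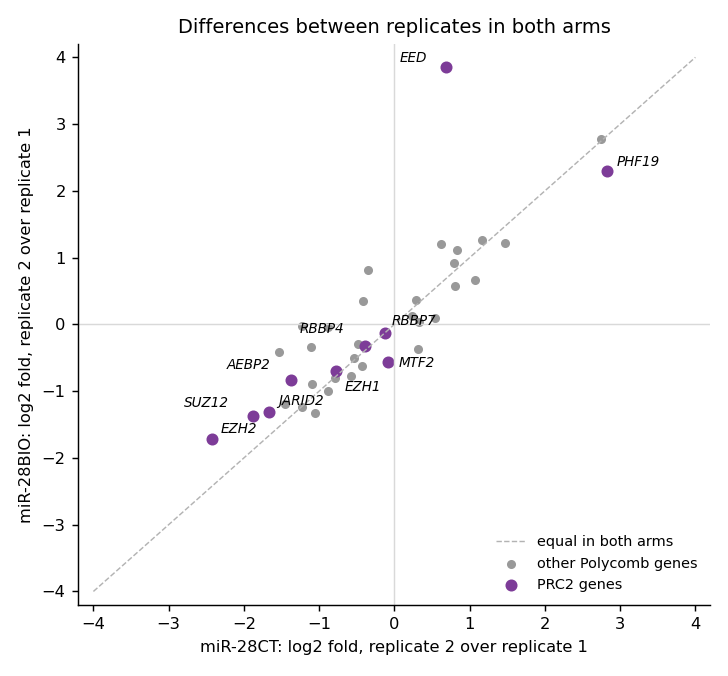
Log2 fold of replicate 2 over replicate 1 in miR-28CT (x axis) and in miR-28BIO (y axis) for the 10 PRC2 genes (purple) and the 29 other Polycomb genes tested (grey), with a dashed line where both arms are equal. EZH2, SUZ12 and JARID2 lie below -1 on both axes, PHF19 lies above 2 on both, and EED lies off the line because 1 of its miR-28BIO values was 0.

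Outside PRC2, 36 further Polycomb genes were examined, namely other PRC2 partners, the subunits of PRC1, which ubiquitinates histone H2A, the deubiquitinase BAP1 with its ASXL partners, and the demethylases that remove the PRC2 mark. Of these 29 passed the filter, and 0 were called in limma, with 1 (E2F6) at an unadjusted p under 0.05. With the replicate block 5 were under 0.05 (E2F6, CBX2, YAF2, CBX6 and PCGF3), against 25.8% of all genes, and 0 were called. The arms did not overlap in 7 of the 29, of which miR-28BIO was the higher in 6 (E2F6, CBX2, YAF2, SCMH1, L3MBTL2 and ASXL1) and the lower in 1 (PCGF3), beside the shares of 12.3% and 12.7% of all genes. Without miR-28CT replicate 1 the counts were 15 and 8, against 32.1% and 38.8% of all genes at that setting. Without miR-28CT replicate 2 they were 6 and 6, against 26.7% and 31.3%. Without miR-28BIO replicate 1 they were 8 and 7, against 24.9% and 28.6%. Without miR-28BIO replicate 2 they were 14 and 8, against 30% and 35.2%. The median log2 fold change of the 29 genes was 0.11.

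E2F6, a repressor in a variant form of PRC1, had the largest fold change of the Polycomb genes tested. It had 2.24 and 1.74 scaled FPKM in miR-28CT and 21.9 and 38.5 in miR-28BIO. The arms were far apart, with a log2 fold change of 3.81 (SE 0.50) and pairs of 3.23 and 4.39, but the limma adjusted p was 0.443, and it ranged from 0.0565 with the replicate block to 1.00 over the alternatives. Most of the sum came from NR_103490, a noncoding record, with 1.96 and 1.45 in miR-28CT and 13.2 and 25.5 in miR-28BIO. Each of the coding records that passed the filter was listed at 0 in 1 miR-28BIO library. The canonical coding transcript of E2F6 holds AGCTCCT 1 time in its 3′UTR, and this window is shown for comparison with those of EZH1.
E2F6 3′UTR, chr2:11445383-11445412, minus strand: gtagtttaccattagactgtgAGCTCCTtg

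CBX2, which reads the PRC2 mark for PRC1, had 0.390 and 1.00 in miR-28CT and 1.05 and 2.66 in miR-28BIO, a log2 fold change of 1.28 (SE 0.78, limma adjusted p of 1.00). YAF2, an adaptor of PRC1, had 2.94 and 1.20 in miR-28CT and 4.09 and 4.00 in miR-28BIO, a log2 fold change of 1.06 (SE 0.57, limma adjusted p of 1.00). SCMH1, L3MBTL2 and ASXL1 had log2 fold changes of 0.47, 0.34 and 0.31, and PCGF3 had -0.62. Of the 36 genes 6 held AGCTCCT in the 3′UTR (LCOR, PCGF5, CBX7, SCMH1, E2F6 and ASXL2), against 14.13% of all 3′UTRs. Apart from SCMH1 and E2F6, given above, their log2 fold changes were 0.43 for LCOR, 0.24 for PCGF5, -0.30 for CBX7 and -0.14 for ASXL2, and all of these had overlapping arms.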

How the data were processed

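RNA of 4 pull out libraries (60 nM duplex, 2 per arm) was sequenced in single reads of 50 bases. Per the submitters' notes and the methods, the authors used FastQC 0.10.1, cutadapt, TopHat2 2.0.9 on hg38 and Cufflinks 2.1.1, and ran Cuffdiff. The authors deposited 1 table per library, with FPKM, interval bounds and a status for 53209 RefSeq records. The deposited coverage, a signal, served here only to estimate reads. Counts were not used, so no count test was run and no counting interval was calculated, and the precision is limited by 2 libraries per arm.

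Accessions were matched to the GRCh38 RefSeq table, which named 97.1% of records. Records were kept where all 4 libraries had status OK (52530), libraries were scaled by median-of-ratios factors over the 11650 above 0 throughout, and limma 3.58.1 (lmFit, eBayes with a trend, R 4.3.3) was run on log2(scaled FPKM + 0.1) for features whose mean reached 0.5, with Benjamini-Hochberg adjustment over all of them. Python 3.11.15, numpy 2.4.6, pandas 2.3.3 and matplotlib 3.10.9 were used. The smallest two-sided p of an exact permutation test of 2 against 2 is 0.333. The 10 members, the list of 36 further genes and the rules were chosen with earlier results of these data known. The genes named are all members, the Polycomb genes whose arms did not overlap, copies, and the 5 genes most like EZH1. CBX6, LCOR, PCGF5, CBX7 and ASXL2 fall outside this rule and were named after their values were seen. One cell type marker is not reported here.

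The libraries are described as 2 biological replicates. Libraries with the same number in the labels were taken as pairs, and gene deviations from the arm means correlated across genes (r = 0.623, rho = 0.830). In simulated data with 200 of 15587 transcripts changed and the real spread, limma called 0 of them, and 180 had the right direction. With 0.05 of that spread it called 184, with 2 false calls. Alternatives were other pseudocounts, filters and scalings, all statuses, no trend, the highest transcript, the replicate block and leaving out each library. The sum over both EED records was chosen after seeing the data.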

Additional observations from a re-analysis of the deposited data

How the results depend on the processing

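No PRC2 gene was called under any alternative. Apart from leaving out a library, 97 of the 99 values of gene fold changes kept their direction and their side of the threshold, and those that did not were SUZ12 without scaling (0.12) and with upper quartile scaling (0.062). These scalings moved the median of all genes by 0.16 and 0.10. Other filters, all statuses, no trend and the replicate block left each log2 fold change as it was, so no direction could turn there. The sum over both EED records is counted among the 97, although the log2 fold change went from -2.49 to -0.02. The median of the PRC2 genes was 0.050 without scaling and 0.027 within replicate pair 2. With the replicate block, 42 genes of the whole table were called as enriched and 22 as depleted, none of them in PRC2, and 4 PRC2 genes were higher in both pairs. The count of depleted genes was 0 with a pseudocount of 1, with no filter and with limma without a trend, where 89, 151 and 89 had an unadjusted p under 0.05.

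Without 1 library at a time, the PRC2 median ran from -0.38 (without miR-28CT replicate 2) to 0.45 (without miR-28CT replicate 1), the count above from 1 to 5, the count below from 4 to 5, and the counts of other Polycomb genes from 6 to 15 above and from 6 to 8 below. Genes called as depleted numbered 0 in each case. The log2 fold change ran from -4.42 to -0.56 for EED, from -0.60 to -0.04 for MTF2, from -0.13 to 1.24 for AEBP2, from -0.51 to 1.91 for EZH2, from -0.38 to 1.28 for JARID2, from -2.20 to 0.63 for PHF19, from -2.37 to 0.72 for its transcript NM_001009936, from -0.39 to 0.0041 for RBBP4 and from -0.98 to 0.90 for SUZ12. The cause was not tested. EZH1 stayed between 1.50 and 2.28 and RBBP7 between -0.72 and -0.59.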
